A study of Mus musculus with 4 samples.

Results

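Cxcr4, S1pr1, Klf2 and Ccr7 are 4 genes that set where lymphocytes go and when they leave a tissue, and they were read here across the immune cells of the mouse peritoneal cavity in high-fat-fed (HFD) and chow-fed (CD) animals. They are 4 of the 33696 genes listed in the expression matrices. The genes were chosen with these data known, for their levels and detection in macrophages, T cells and B cells of the 2 diets, so every difference between diets below is a description and carries no test. Wild-type mice were put on HFD or CD at an age of 4 weeks and kept on it for 3 months. Their peritoneal cells were then washed out and sorted for CD45, the surface protein of leukocytes. Each diet has 1 expression library, counted in unique molecular identifiers (UMIs), and 1 library of B-cell receptor contigs. The number of mice and any pooling are not given, so each interval below is for counting error alone and holds no spread between animals or sample preparations.

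Barcodes, which stand for droplets with 1 or more cells, were put into classes by the same rule that chose the genes. Macrophages had 5 or more UMIs of Adgre1, Prg4, Alox15 and Garnl3 together, T cells had 2 or more UMIs of Cd3e, Cd3d and Cd3g together, and both had no receptor contig. B cells had a contig and were split by the sum of Fcer2a (CD23) and Cr2 (CD21), surface proteins of conventional B-2 cells, into Fcer2a/Cr2-negative barcodes (0 UMIs) and Fcer2a/Cr2-positive ones (2 or more UMIs). This gave 1477 macrophages, 771 T cells, 2409 negative and 768 positive B barcodes in HFD, against 2144, 1018, 4884 and 1143 in CD. Depth differed with diet, with medians of 12309, 5045, 6576 and 5337 UMIs per barcode in these HFD classes and 4873, 3721, 4552 and 4819 in the CD ones. The defining markers were present in each class. Gata6, the transcription factor of resident peritoneal macrophages, was at 130 CPM in HFD and 94.7 CPM in CD macrophages, where CPM is the summed UMIs of the gene per 1000000 UMIs of the class. Trac, the T-cell receptor alpha constant gene, was at 183 CPM in HFD and 107 CPM in CD T cells. Zbtb32, a gene of B-1 cells, was at 219 CPM in HFD and 158 CPM in CD in negative B barcodes, and at 49.8 and 47.0 CPM in positive ones. The libraries shared 30 barcodes, which is 0.435% of the HFD and 0.227% of the CD barcodes.

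CXCR4 is the receptor of the chemokine CXCL12 and holds leukocytes in niches that make it, the bone marrow among them. S1PR1 senses sphingosine 1-phosphate, which is high in blood and lymph and low in tissue, and draws lymphocytes out. KLF2 is the transcription factor that keeps S1pr1 on in resting T cells. CCR7 answers to CCL19 and CCL21 and guides naive lymphocytes and migrating dendritic cells to lymph nodes. In the peritoneal cavity, B-1 cells, B-2 cells, T cells and resident macrophages lie side by side and the lymphocytes pass through the omentum.

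RefSeq promoter windows (build GRCm38.p6) were at hand for 2 of the 4 genes, Cxcr4 and Klf2. In the 4 main classes these are also the member with the largest and the member with the smallest differences between diets. The 250 bases before each start are shown 5′ to 3′ on the gene's strand. In Cxcr4 (chr1:128592300-128592549, minus strand), capitals mark GCGTG, a form of the core bound by hypoxia-inducible factors, and the TATAAA box with its reverse-strand match.
Cxcr4: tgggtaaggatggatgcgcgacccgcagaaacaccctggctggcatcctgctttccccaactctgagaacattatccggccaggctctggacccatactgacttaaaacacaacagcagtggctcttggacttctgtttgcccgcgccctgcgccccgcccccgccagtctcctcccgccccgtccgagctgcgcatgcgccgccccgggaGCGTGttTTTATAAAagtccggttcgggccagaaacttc
In Klf2 (chr8:72318812-72319061, plus strand), capitals mark a match to the motif of MEF2 factors, which act on the Klf2 promoter in blood-vessel lining cells, and GGGTG, the reverse strand of the KLF core CACCC.
Klf2: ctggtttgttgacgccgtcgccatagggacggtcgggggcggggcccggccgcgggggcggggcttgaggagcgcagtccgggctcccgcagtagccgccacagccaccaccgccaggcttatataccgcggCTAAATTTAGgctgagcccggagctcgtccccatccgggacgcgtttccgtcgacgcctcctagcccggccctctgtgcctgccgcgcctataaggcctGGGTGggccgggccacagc

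The GCGTG of Cxcr4 began 39 bases and the TATAAA 30 bases before the start, and the MEF2 motif of Klf2 began 118 bases before it. Searched on both strands of all 32851 windows of this length, ACGTG or GCGTG stood in 38.6%, CACCC in 52.0% and TATAAA in 12.4%, while the MEF2 motif stood in 959 windows (2.92%). The Cxcr4 window also held 1 CACCC, beginning 219 bases before the start, and TATAAA overlapped its own reverse-strand match. GC content was 61.2% for Cxcr4 and 71.2% for Klf2, against a median of 52.4% over all windows. These are matches of letters, and nothing in the files measured binding there.

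Cxcr4 was lower in HFD than in CD in every one of the 4 main classes. In macrophages it had 9 UMIs in HFD and 64 UMIs in CD, or 0.440 and 4.54 CPM, a log2 ratio of HFD over CD of -3.37 (95% interval -4.56 to -2.35). In T cells it stood at 21.2 CPM in HFD (17.1 to 26.0) and 35.6 CPM in CD (30.4 to 41.4), a log2 ratio of -0.75 (-1.13 to -0.37). Negative B barcodes had 10.5 CPM in HFD and 23.5 CPM in CD, a log2 ratio of -1.16 (-1.40 to -0.93). The neutrophil genes S100a8 and S100a9 were high in this HFD class through 1 barcode, which held 2558 of their 2590 UMIs, and without it the Cxcr4 ratio was -1.17. In positive B barcodes the gap was widest among lymphocytes, at 10.8 CPM in HFD and 40.3 CPM in CD, or 3.74-fold lower in HFD (log2 -1.90; -2.37 to -1.47). The counting intervals of the 2 diets did not overlap in any of these 4 classes. The same held for Klf2, whose macrophage log2 ratio was only 0.12. The share of all genes for which it holds is not given here, so the lack of overlap only describes Cxcr4 and does not set it apart. The B barcodes just outside the split, with exactly 1 UMI of Fcer2a and Cr2, had 9.11 CPM in HFD and 30.9 CPM in CD, a log2 ratio of -1.76.

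In the small classes Cxcr4 counts were few. Dendritic barcodes held 0 Cxcr4 UMIs over 63 HFD barcodes, which allows up to 3.99 CPM at the limit of 3 counts, and 19 UMIs (14.5 CPM) over 153 CD barcodes. B-cell RNA at its estimated share of 7.75% in HFD and 27.8% in CD dendritic UMIs would give 52.1% of that CD level. Monocytes and small macrophages had 7 UMIs in HFD and 10 UMIs in CD, with a log2 ratio of -0.22 whose interval of -1.85 to 1.32 spans 0. Natural killer barcodes had 4 UMIs in 40 HFD barcodes and 7 UMIs in 31 CD barcodes.

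**Figure D1:**
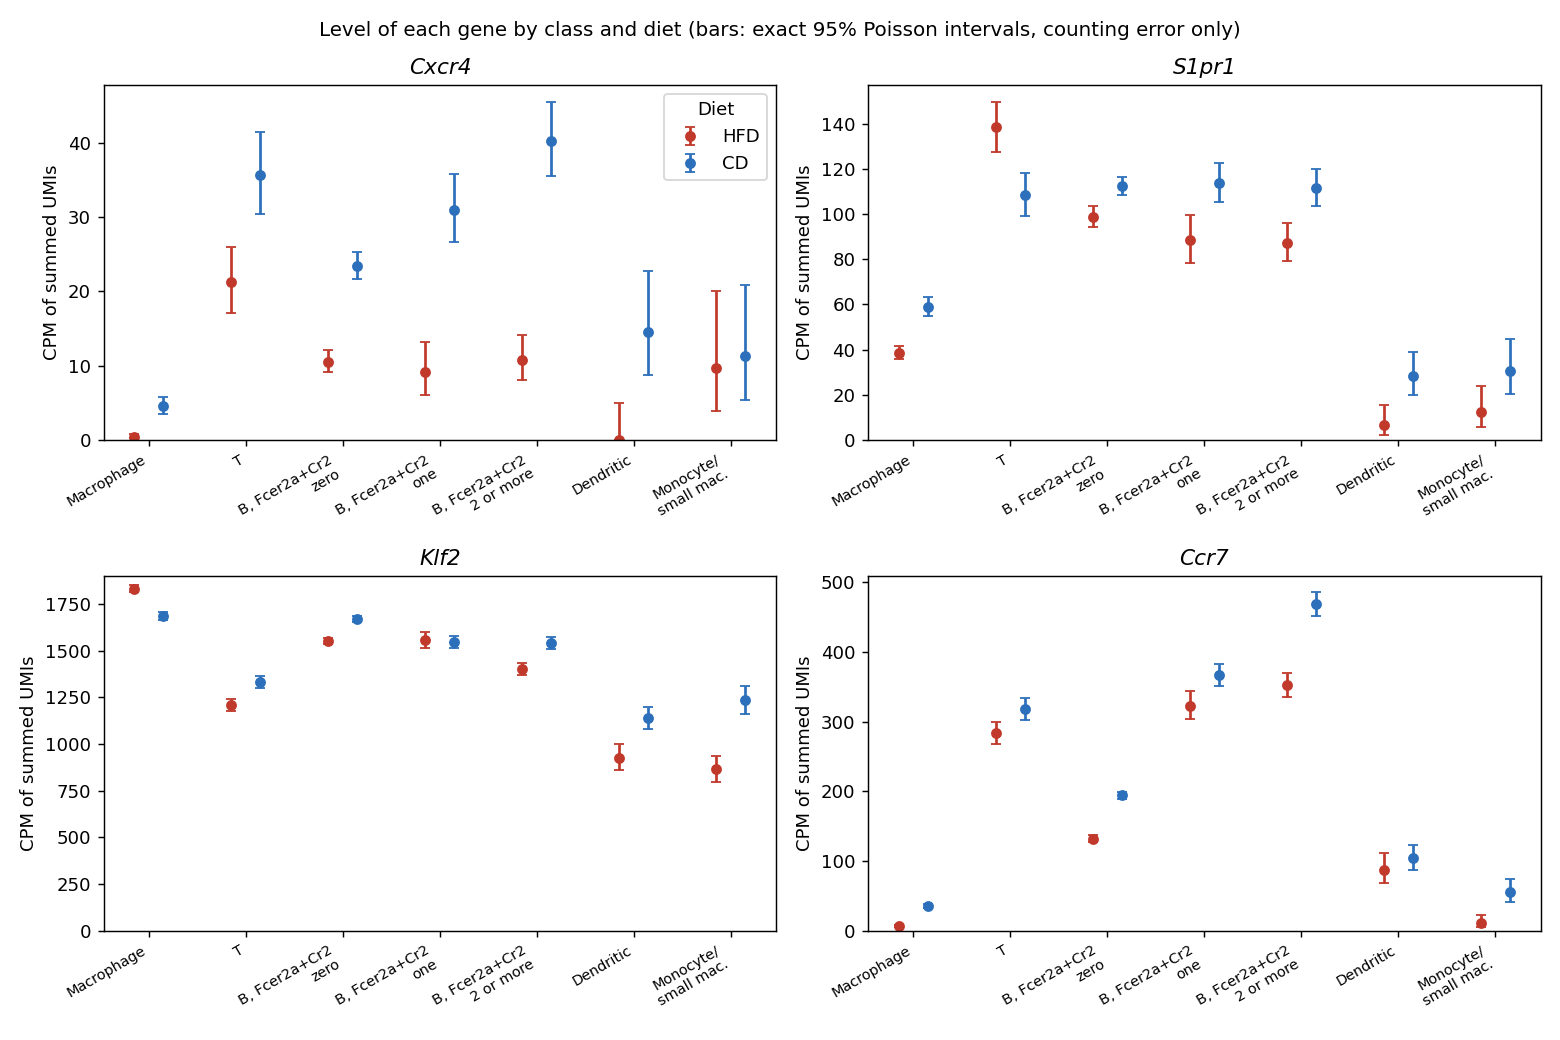
Level of each gene in CPM of summed UMIs (y axis, linear from 0) in 7 classes (x axis), with HFD in red left of CD in blue and bars for exact 95% Poisson intervals of 1 library each. Cxcr4 is lower in HFD in the 4 main classes, with 10.8 against 40.3 CPM in Fcer2a/Cr2-positive B barcodes, while Klf2 levels of the 2 diets lie close together in macrophages, T and B cells.

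The order of T and B cells by Cxcr4 also differed between libraries. Natural killer barcodes, at 28.0 CPM in HFD and 72.5 CPM in CD, are left out of it because of their few UMIs. In HFD, T cells were highest of these, and the 3 B groups followed at 9.11 to 10.8 CPM with overlapping intervals. In CD, positive B barcodes (40.3 CPM; 35.5 to 45.5) were highest of these and overlapped with T cells (30.4 to 41.4), and negative B barcodes were below both (21.7 to 25.4). Positive over negative B barcodes gave a log2 ratio of 0.04 in HFD (-0.44 to 0.49), against 0.78 in CD (0.56 to 0.99). The HFD ratio depended on depth. Among barcodes of 3000 to under 6000 UMIs it was 0.85 in HFD (0.05 to 1.63) and 0.85 in CD (0.54 to 1.15), while among those of 6000 to under 12000 UMIs it was -0.56 in HFD (-1.45 to 0.24) and 0.30 in CD (-0.12 to 0.71).

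The share of barcodes with a Cxcr4 UMI showed the same direction although the HFD barcodes were deeper. It was 6.38% in HFD and 18.0% in CD among positive B barcodes, 6.85% and 11.4% among negative ones, and 10.1% and 13.9% among T cells. Macrophages, which hold little Cxcr4, gave 0.609% in HFD and 2.85% in CD. With each barcode thinned to 2000 UMIs, positive B barcodes were at 3.20% in HFD (2.06 to 4.72) and 8.61% in CD (7.03 to 10.4), negative ones at 2.04% and 5.06%, T cells at 3.01% and 7.42%, and macrophages at 0.0708% and 1.21%. Thinning left out 64, 40, 53 and 17 shallower barcodes of HFD macrophages, T cells, negative and positive B barcodes, and 250, 156, 102 and 16 of the CD ones. On the thinned counts the T-cell log2 ratio was -1.35, larger than on all UMIs. No barcode of these classes held more than 4 Cxcr4 UMIs in either library.

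Within bands of depth the direction was the same in each of 4 bands and 4 classes. Among positive B barcodes of 3000 to under 6000 UMIs, Cxcr4 was at 14.8 CPM in HFD and 53.5 CPM in CD, and among negative ones of that depth at 8.21 and 29.7 CPM. T cells of that depth had 22.2 CPM in HFD and 43.6 CPM in CD, whereas T cells of 12000 or more UMIs had 17.7 and 19.0 CPM, from 11 UMIs in HFD.

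Against all genes, Cxcr4 stood at the low end in B cells and macrophages. Among genes with 50 or more UMIs over both libraries, 15 of 9453 had a lower ratio in positive B barcodes, 197 of 11817 in negative ones, 41 of 11294 in macrophages and 548 of 9442 in T cells. A gene lower by 1 or more on the log2 scale was found at a rate of 4.94% in macrophages, where 2 of the 4 members (Cxcr4 and Ccr7) passed that mark. The rate was 2.42% in negative and 0.836% in positive B barcodes, with Cxcr4 alone past it in both, and 3.95% in T cells, where 0 of 4 members passed. The members were chosen on this contrast, so these counts only describe them. The median ratio of all genes lay between -0.05 in macrophages and 0.05 in positive B barcodes.

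**Figure D2:**
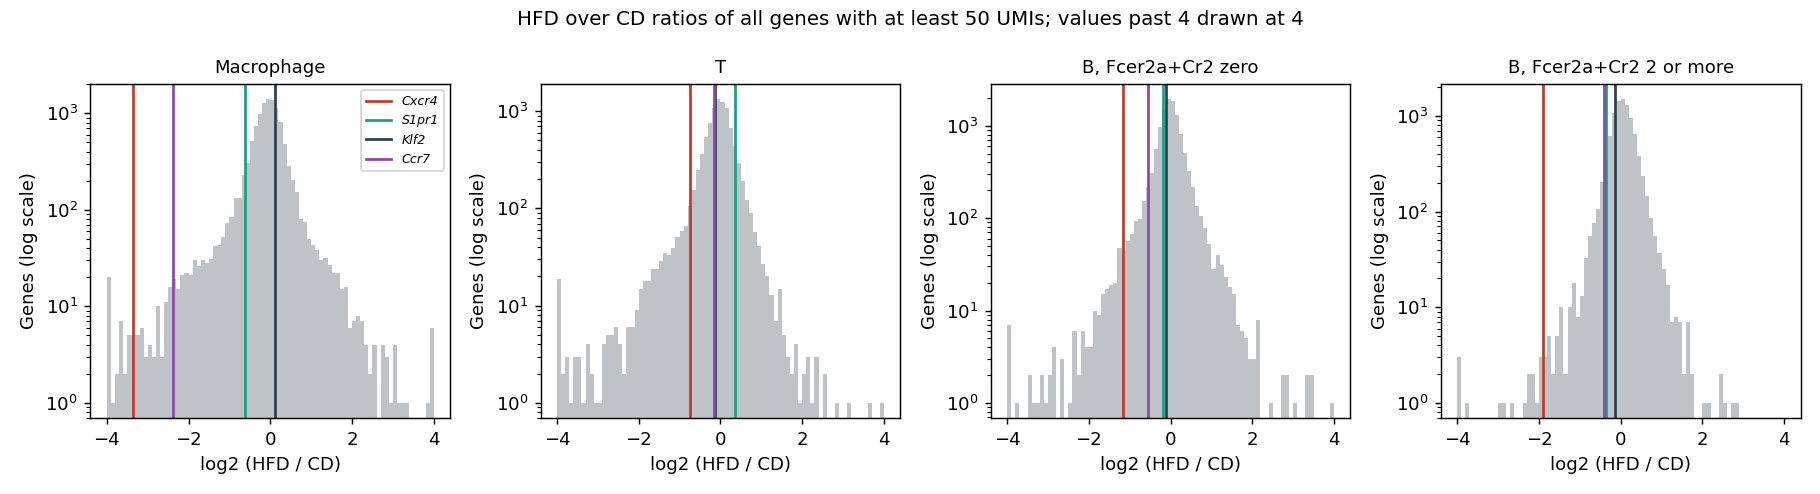
Log2 ratios of HFD over CD (x axis) of all genes with at least 50 UMIs over both libraries in 4 classes, as histograms with a logarithmic count axis, with coloured lines at the 4 genes. The Cxcr4 line stands far left of the bulk in macrophages and positive B barcodes, with 41 and 15 genes lower, and the Klf2 line stays near the centre of each histogram.

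Receptor contigs, which the rule used only to name B cells, split the B barcodes by receptor. B-1 cells often carry IGHV11-2 or IGHV12-3 heavy chains, known for binding phosphatidylcholine. In barcodes with neither of these 2 V genes (2622 in HFD, 5258 in CD), Cxcr4 was at 10.95 CPM in HFD and 28.9 CPM in CD, a log2 ratio of -1.40 (-1.64 to -1.17). IGHV12-3 barcodes had 12.1 CPM in HFD and 21.6 CPM in CD (log2 -0.84; -1.48 to -0.19). IGHV11-2 barcodes had 8.55 CPM in HFD and 12.2 CPM in CD, and their interval of -1.28 to 0.23 spans 0. In CD, IGHV11-2 barcodes were 2.36-fold lower in Cxcr4 than barcodes of other V genes (log2 -1.24; -1.76 to -0.76), while in HFD the same ratio was -0.36 with an interval of -0.97 to 0.21.

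Clone size gave a similar picture. B barcodes whose receptor was seen in no other barcode had 12.3 CPM of Cxcr4 in HFD and 30.8 CPM in CD, and those of clones of 5 or more had 10.1 and 17.2 CPM. Barcodes of large clones were therefore lower than single ones in CD by 0.84 on the log2 scale (interval of the ratio -1.17 to -0.53), and in HFD the ratio was -0.28 (-0.75 to 0.18). Barcodes with a contig of IGHD, the constant gene of IgD, had 9 UMIs (25.9 CPM) in HFD and 20 UMIs (41.1 CPM) in CD, too few to separate the diets (-1.98 to 0.54). IGHG barcodes, which have switched class, had 2 UMIs in HFD and 26 UMIs in CD.

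**Figure D3:**
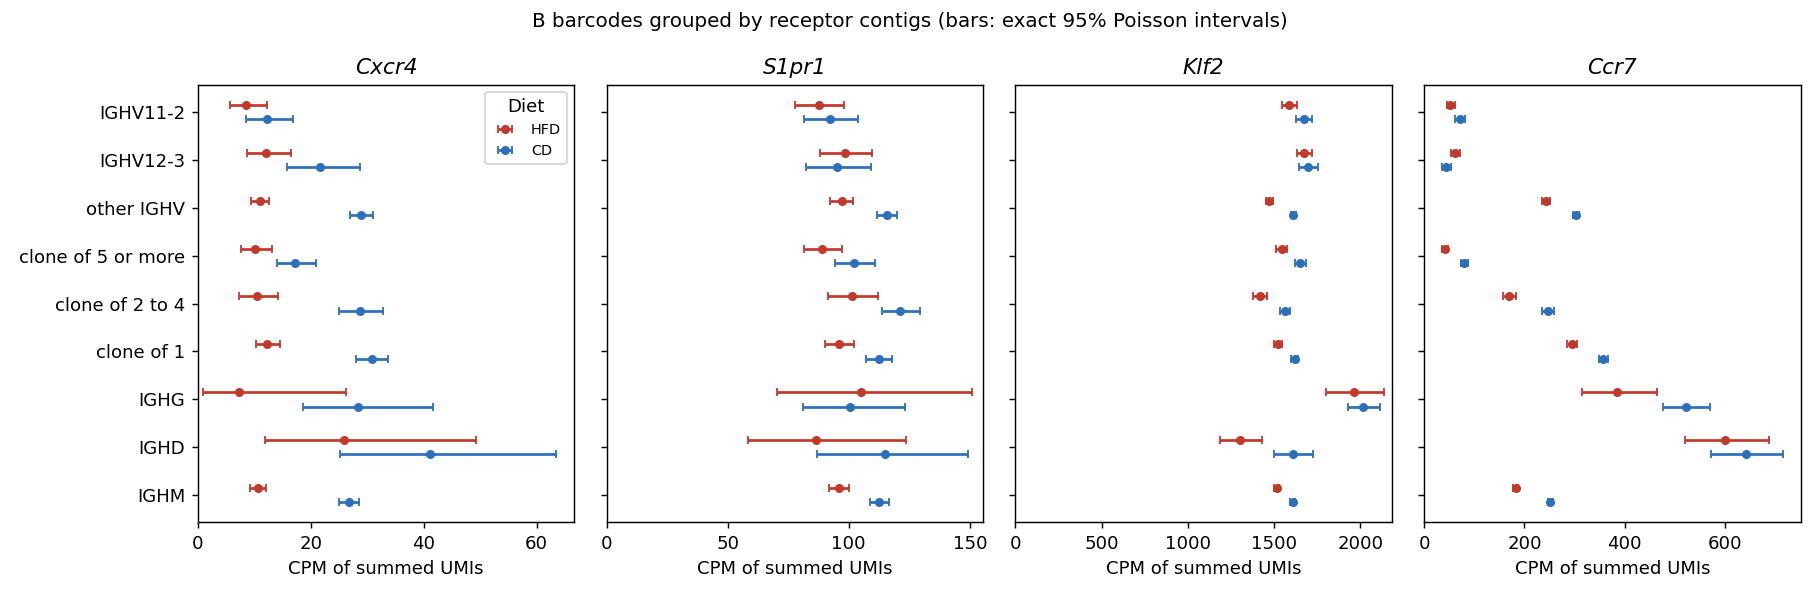
Level of each gene in CPM (x axis, linear from 0) in B barcodes grouped by heavy-chain V gene, clone size or constant gene of their contigs (y axis), with HFD in red above CD in blue and exact 95% Poisson intervals. Ccr7 separates the receptor groups in both libraries, at 52.5 CPM in HFD and 70.7 CPM in CD for IGHV11-2 against 600 and 641 CPM for IGHD, while the S1pr1 intervals of most groups overlap and Klf2 is highest in IGHG, at 1963 CPM in HFD and 2018 CPM in CD.

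Among T cells, barcodes with Cd8a or Cd8b1 and no Cd4 had 21.8 CPM of Cxcr4 in HFD and 40.5 CPM in CD (log2 -0.89; -1.58 to -0.22). Those with Cd4 alone had 25.1 CPM in HFD and 32.6 CPM in CD, with an interval of -1.14 to 0.36. Gamma-delta T barcodes, which showed 2 or more UMIs of Trdc and the Trgc genes, had 10 UMIs (19.3 CPM) in HFD and 27 UMIs (44.7 CPM) in CD (log2 -1.22; -2.43 to -0.12). T barcodes with 0 UMIs of the effector genes Ccl5, Nkg7, Cxcr3, Cxcr6 and Id2 had 12.1 CPM in HFD and 31.2 CPM in CD, and those with 2 or more had 23.5 and 37.6 CPM.

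Barcodes with a Cxcr4 UMI were compared with those without one in the same library, a split made after the data were seen and one that also picks deeper barcodes in most classes. Among positive B barcodes, those with Cxcr4 had more Ccr7, at 665 CPM with and 332 CPM without in HFD, and at 566 and 444 CPM in CD. T cells did not share this in both libraries. Their Ccr7 was at 234 CPM with and 292 CPM without in HFD, and at 362 and 308 CPM in CD, with overlapping intervals in each. Rgs1, a brake on chemokine receptor signalling, was at 58.9 CPM in HFD T cells with Cxcr4 and 16.1 CPM in those without. In CD T cells it was at 16.01 and 8.59 CPM, from 14 and 33 UMIs, with overlapping intervals. Not every class shared that direction, with Rgs1 at 31.5 CPM with and 38.9 CPM without in HFD macrophages, whose intervals overlapped. S1pr1 intervals with and without Cxcr4 overlapped in T cells, at 157 CPM with and 136 CPM without in HFD and at 111 and 108 CPM in CD. They overlapped in negative B barcodes too, at 85.1 CPM with and 100.3 CPM without in HFD and at 115 and 112 CPM in CD.

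S1pr1 differed from Cxcr4 in that its direction depended on the class. T cells had more S1pr1 in HFD, at 138 CPM (128 to 150) against 108 CPM in CD (99.1 to 118), a log2 ratio of 0.35 (0.18 to 0.53). Macrophages had less, at 38.6 CPM in HFD and 59.0 CPM in CD (log2 -0.61; -0.75 to -0.47). B barcodes had slightly less, at 98.9 CPM in HFD and 112 CPM in CD for negative (-0.19; -0.27 to -0.10) and at 87.3 and 111 CPM for positive ones (-0.35; -0.53 to -0.17). The T-cell difference was 0.54 (0.21 to 0.86) in Cd4 barcodes, at 167 CPM in HFD and 115 CPM in CD, and 0.31 (-0.04 to 0.68) in Cd8 barcodes, at 117 and 94.1 CPM. T barcodes without effector genes had 157 CPM in HFD and 147 CPM in CD, and those with 2 or more UMIs of them had 126 and 98.4 CPM. In CD the S1pr1 levels of T cells and both B classes had overlapping intervals, and in HFD T cells were above negative B barcodes by 0.48 on the log2 scale (0.35 to 0.62).

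S1pr1 was found in 47.5% of T cells in HFD and 35.6% in CD. At 2000 UMIs per barcode this became 24.5% in HFD (21.4 to 27.8) and 21.1% in CD (18.4 to 24.0). The difference in T cells is thus smaller at equal depth, with overlapping intervals. Negative B barcodes were at 19.9% in HFD and 20.9% in CD there. Dendritic barcodes showed S1pr1 in 3.17% in HFD, from 5 UMIs in 2 barcodes, and in 15.0% in CD. Its level there was 6.65 CPM in HFD and 28.3 CPM in CD. B-cell RNA at the dendritic shares given above would give 7.41 and 31.2 CPM, enough for that level in both. Across the V-gene groups of B cells S1pr1 ran from 87.6 CPM in IGHV11-2 to 98.5 CPM in IGHV12-3 barcodes in HFD and from 92.2 to 116 CPM in CD. Against other V genes, the CD log2 ratios were -0.33 (-0.51 to -0.15) for IGHV11-2 and -0.28 (-0.49 to -0.08) for IGHV12-3. In HFD they were -0.15 (-0.33 to 0.03) and 0.02 (-0.15 to 0.19).

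Klf2 was present in almost every barcode and differed least between diets. Macrophages had 1830 CPM in HFD and 1685 CPM in CD, a log2 ratio of 0.12 (0.10 to 0.14). T cells had 1208 CPM in HFD and 1331 CPM in CD (-0.14; -0.19 to -0.09). Negative B barcodes had 1551 CPM in HFD and 1670 CPM in CD (-0.11), and positive ones had 1402 and 1542 CPM (-0.14). The counting intervals exclude 0 because the UMIs are many, yet 34.7% of all genes in T cells and 70.5% in macrophages had a lower ratio than Klf2. The T-cell direction did not hold: it was 0.07 without barcodes of 2 lineages and 0.33 with the B-cell profile taken off, as given further on. Dendritic barcodes had a Klf2 log2 ratio of -0.30 (-0.43 to -0.17). Monocytes and small macrophages had one of -0.51 (-0.66 to -0.37). B-cell RNA at its estimated share would give 12.8% of the dendritic Klf2 in HFD and 39.8% in CD. For monocytes and small macrophages it would give 15.3% and 30.3%. In HFD, macrophages were highest in Klf2, whereas in CD they did not stand apart from negative B barcodes (1663 to 1706 against 1655 to 1685 CPM). T barcodes with effector genes were lower than those without, at 1093 and 1512 CPM in HFD and at 1216 and 1664 CPM in CD, so that the ratio was -0.47 in HFD and -0.45 in CD. IGHG barcodes were highest among the receptor groups with 49 or more barcodes, at 1963 CPM in HFD and 2018 CPM in CD.

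**Figure D4:**
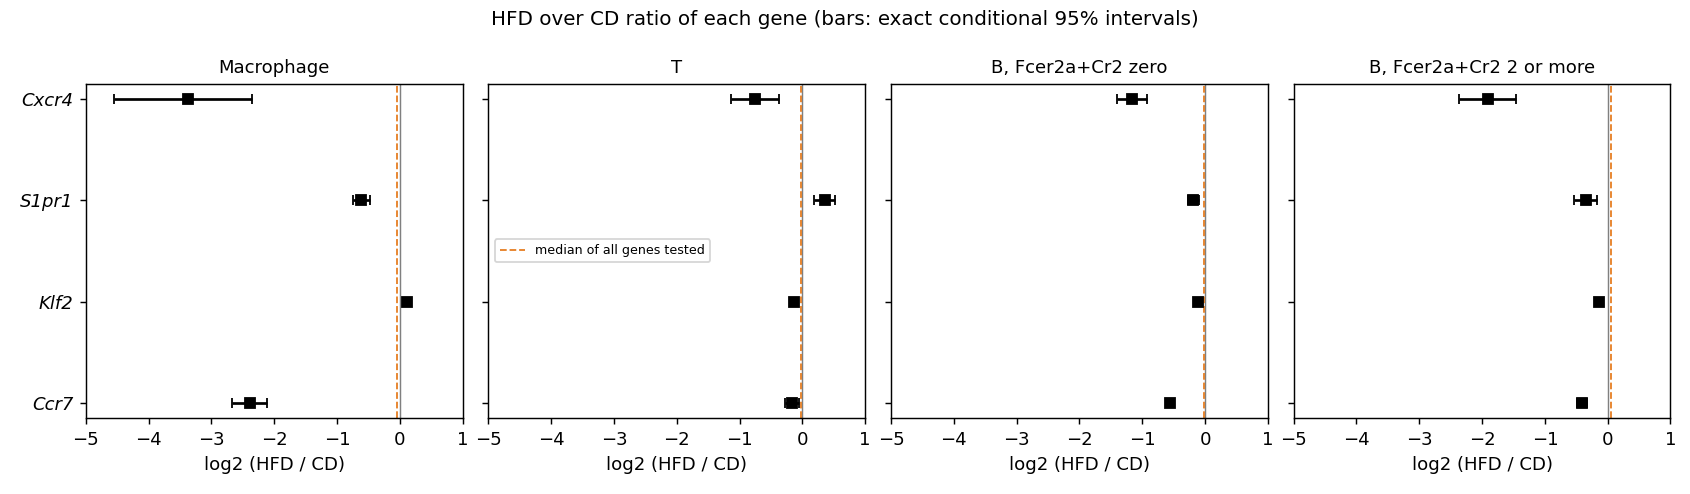
Log2 ratio of HFD over CD (x axis) of each gene (y axis) in 4 classes, with bars for exact conditional 95% intervals and a dashed line at the median ratio of all genes tested. Cxcr4 lies left of 0 in all 4 panels, from -3.37 in macrophages to -0.75 in T cells, and S1pr1 lies right of 0 in T cells at 0.35.

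Ccr7 was the member that told B-cell groups apart. Positive B barcodes were above negative ones by 1.42 on the log2 scale in HFD (1.33 to 1.51) and by 1.27 in CD (1.21 to 1.34). Among HFD barcodes under 3000 UMIs this ratio was -0.27 (-0.65 to 0.09), and it was 0.93, 1.55 and 1.32 in the deeper bands. In CD it lay between 1.12 and 1.46 in every band. By contigs, IGHD barcodes had 600 CPM in HFD and 641 CPM in CD, IGHG barcodes 384 and 522 CPM, and IGHM barcodes 182 and 252 CPM. IGHV11-2 barcodes had 52.5 CPM in HFD and 70.7 CPM in CD, and IGHV12-3 barcodes had 62.5 and 44.6 CPM. Large clones were 7.06-fold below single receptors in HFD, at 41.7 against 295 CPM, and 4.46-fold below in CD, at 80.2 against 358 CPM.

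Between diets Ccr7 was lower in HFD in B cells, at 132 CPM in HFD and 194 CPM in CD in negative barcodes (log2 -0.56; -0.63 to -0.49) and at 353 and 468 CPM in positive ones (-0.41; -0.50 to -0.32). With each barcode given equal weight the negative B ratio was -0.27, and the direction depended on depth. Under 3000 UMIs Ccr7 was higher in HFD, at 523 CPM (458 to 596) against 261 CPM in CD (242 to 280). At 3000 to under 6000 UMIs the levels were 250.04 CPM in HFD and 257 CPM in CD. They were 104 and 165 CPM at 6000 to under 12000 UMIs, and 63.7 and 90.3 CPM at 12000 or more. IGHV12-3 barcodes had more Ccr7 in HFD, with a log2 ratio of 0.49 (0.13 to 0.86). T cells had 284 CPM in HFD and 318 CPM in CD (-0.16; -0.27 to -0.05), and the ratio was 0.15 with the B-cell profile taken off. T barcodes without effector genes had 460 CPM in HFD and 562 CPM in CD, and those with them had 220.0 and 225 CPM.

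In macrophages Ccr7 was at 6.65 CPM in HFD and 34.8 CPM in CD, a log2 ratio of -2.39 (-2.67 to -2.11), and most of it is at the level that B-cell RNA would give, by the estimate given further on.

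Ccr7 in dendritic barcodes rested on a few of them. In HFD, 62 of the 66 Ccr7 UMIs lay in 1 barcode, which also held 80 UMIs of Fscn1, an actin-bundling gene of migrating dendritic cells, and 0 UMIs of Cd79a, a B-cell receptor subunit. In CD, 7 barcodes with 5 or more Ccr7 UMIs held 96 of 136 UMIs, with Cd79a at 3335 CPM, near its level of 3334 CPM in negative B barcodes.

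RNA of B cells in barcodes of other classes moved with diet and touches the macrophage and T-cell values. Of 6 B-cell markers, Cd79a, Cd79b and Ms4a1 among them, none was at 0 in macrophages or T cells. Their summed level was 203 CPM in HFD and 909 CPM in CD macrophages, and 576 and 2070 CPM in T cells, against 7273 and 7096 CPM in negative B barcodes. Its part in each difference was not tested, but its size can be stated. At these levels a B-cell profile makes up 2.70% of HFD and 12.5% of CD macrophage UMIs, and 7.65% and 28.5% of T-cell UMIs. Taken at that share, it holds 78.6% of the Ccr7 in HFD and 94.7% in CD macrophages. For macrophage Cxcr4 it holds 63.7% in HFD and 75.2% in CD, for S1pr1 6.69% and 23.8%, and for Klf2 2.25% and 12.1%. In T cells it holds 3.75% of the Cxcr4 in HFD and 21.8% in CD, and 5.29% and 29.6% of the S1pr1. With it taken off, the log2 ratio in T cells was -0.45 for Cxcr4 and 0.78 for S1pr1, and in macrophages it was -0.32 for S1pr1 and -0.37 for Ccr7.

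**Figure D5:**
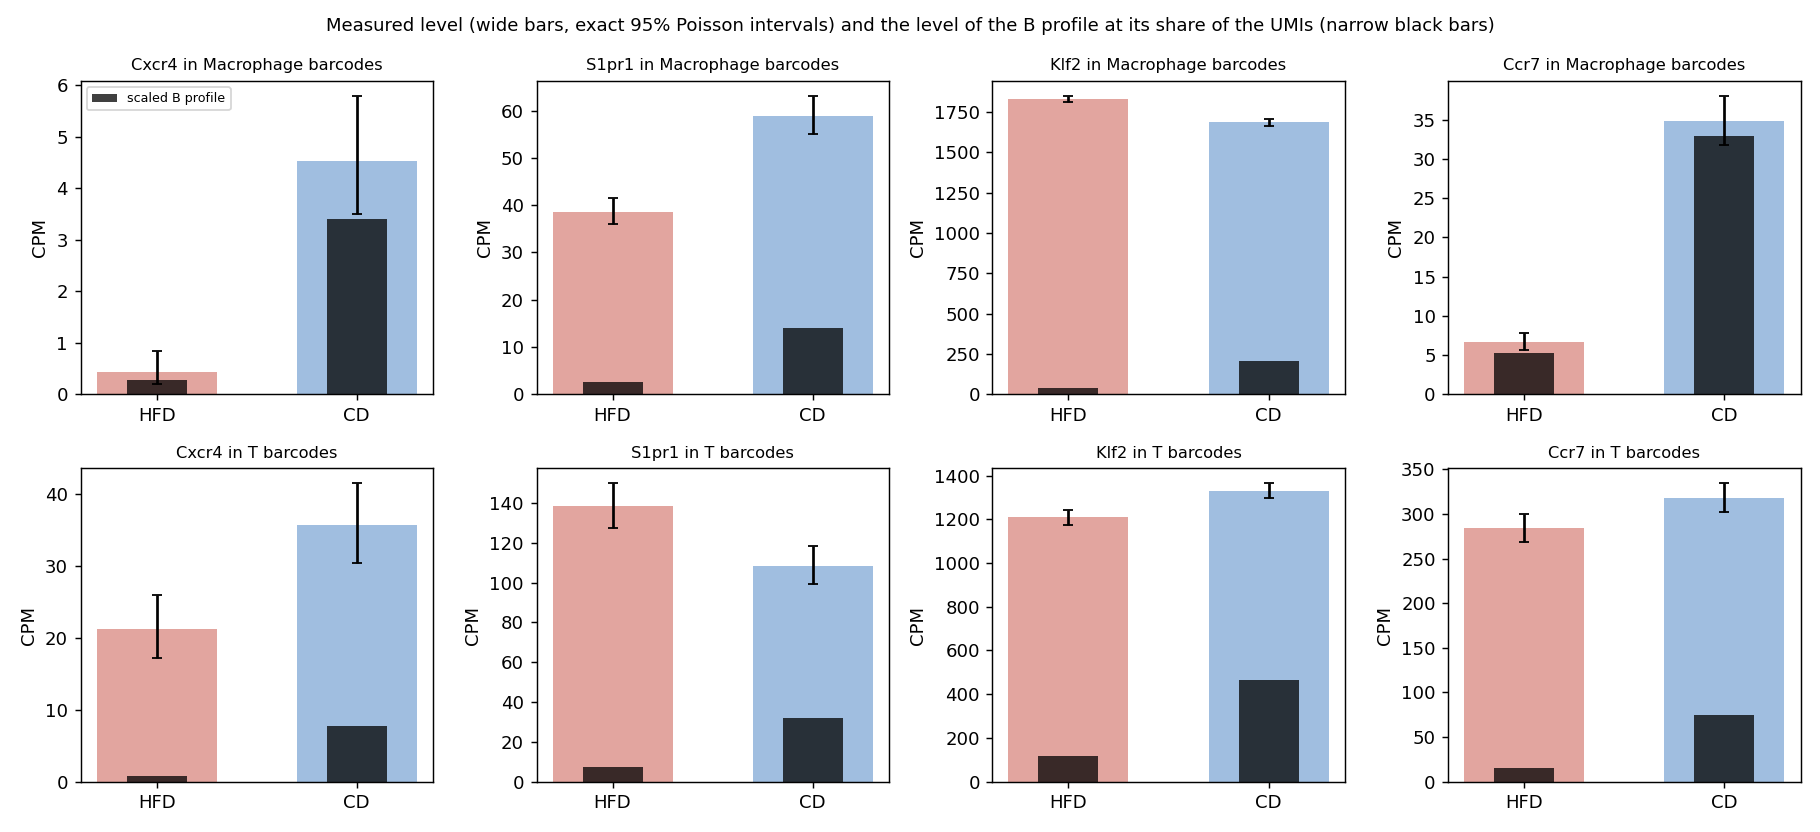
Measured level in CPM (wide bars, y axis from 0, exact 95% Poisson intervals) of each gene in macrophages (top) and T cells (bottom), HFD left of CD, with narrow black bars for the level that a B-cell profile at its share of the UMIs would give. The black bar holds 94.7% of the macrophage Ccr7 in CD and 21.8% of the T-cell Cxcr4 there.

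Barcodes with fewer than 2 UMIs of the genes of each other lineage were also taken alone. Those genes were the macrophage and T gate genes and, for B cells, Cd79a, Cd79b and Ms4a1. The 440 HFD and 481 CD T cells left had Cxcr4 at 19.1 CPM in HFD and 43.8 CPM in CD, a log2 ratio of -1.20 (-1.76 to -0.66), and S1pr1 at 152 and 109 CPM (0.48; 0.23 to 0.74). Positive B barcodes kept a Cxcr4 ratio of -1.91 (-2.46 to -1.39), at 10.2 CPM in HFD and 38.4 CPM in CD. In macrophages Cxcr4 had 3 UMIs in HFD and 13 UMIs in CD, a ratio of -3.07 (-5.52 to -1.21). Macrophages with 0 UMIs of Cd79a, Cd79b and Ms4a1 had S1pr1 at 37.1 CPM in HFD and 53.4 CPM in CD. Their Ccr7 was at 1.87 CPM in HFD and 5.96 CPM in CD. Macrophage RNA made up 4.59% of HFD and 8.04% of CD UMIs in negative B barcodes and 5.56% and 4.53% in positive ones, and it holds at most 1.55% of their Cxcr4.

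The genes most like each member were ranked by Pearson's r of log2 (CPM + 1) over the 14 class and diet sums of 50 or more barcodes, among 4237 genes that reached 50 CPM, as a description over points that share a library and cell sources. For Cxcr4 they were Med28, a Mediator subunit (r = 0.92), Tomm22, a mitochondrial import receptor (0.91), Jtb (0.91), Gadd45gip1 (0.89) and Cdc25b, a cell-cycle phosphatase (0.89). For S1pr1 they were Cmah (0.98), Smim26 (0.97), Snhg12 (0.97), Pced1b (0.95) and Them6 (0.94). Klf2 was most like Cfdp1 (0.90), Atraid (0.90), Dennd4a (0.88), Rpia (0.88) and Eci1 (0.86). Ccr7 was most like Trim12a (0.98), Prkd2 (0.98), Crebrf (0.97), Gpr183, a receptor that positions B cells in follicles (0.97), and Traf3ip3 (0.97). Among the members themselves r ran from 0.14 for Cxcr4 and Klf2 to 0.71 for S1pr1 and Klf2.

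Of the wider egress and sphingosine 1-phosphate pathway, Cd69 stood out, the early activation protein that pulls S1PR1 off the cell surface. It was at 83.5 CPM in HFD and 228 CPM in CD in positive B barcodes (log2 -1.45), at 35.1 and 109 CPM in negative ones (-1.64), at 55.8 and 133 CPM in T cells (-1.25) and at 1.81 and 20.2 CPM in macrophages (-3.48). B-cell RNA made up an estimated 2.70% of HFD and 12.5% of CD macrophage UMIs, and 7.65% and 28.5% of T-cell UMIs. Its part in these Cd69 values was not tested. S1pr5, another receptor of this family, was at 0.482 CPM in HFD and 3.52 CPM in CD negative B barcodes and at 21.1 and 38.6 CPM in macrophages. S1pr4 was at 5.38 CPM in HFD and 12.97 CPM in CD macrophages. As a group the pathway lay near the rest: 10 of 16 measured genes were below 0 in macrophages, 5 of 12 in T cells, 10 of 18 in negative and 6 of 14 in positive B barcodes. The medians were -0.15, 0.06, -0.06 and 0.08, beside medians of -0.05, -0.03, -0.01 and 0.05 over all genes tested.

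Of the chemokine receptors, Cxcr4 and Ccr7 included, 7 of 9 measured genes were below 0 in macrophages (median -0.91), 8 of 10 in T cells (-0.50), 9 of 13 in negative (-0.53) and 5 of 9 in positive B barcodes (-0.41). Over all genes tested, 56.1%, 53.9%, 52.4% and 42.5% were below 0 in these classes. In macrophages the lowest ratios of the 9 were those of Cxcr4, Cxcr5, Ccr7 and Ccr6, beside the B-cell share of 2.70% in HFD and 12.5% in CD, whose part was not tested. Cxcr6, a receptor of tissue-resident T cells, was at 123 CPM in HFD and 218 CPM in CD T cells. Cxcr5, the receptor of B-cell follicles, was at 23.2 CPM in HFD and 62.5 CPM in CD T cells. The part of B-cell RNA in these Cxcr5 values was not tested. Ccr9 was higher in HFD negative B barcodes, at 9.91 CPM against 4.51 CPM in CD. Cxcr3 was at 11.6 CPM in HFD and 5.33 CPM in CD positive B barcodes. Cxcr6 had 3 UMIs in HFD and 55 UMIs in CD in positive B barcodes (log2 -3.77; -6.09 to -2.15), and Ccr2, a receptor of monocytes, had 11 and 69 UMIs (-2.22; -3.29 to -1.29), both further below 0 than Cxcr4. Cxcr6 was also lower in HFD negative B barcodes, at 2.62 CPM against 8.07 CPM in CD. A set of 8 T-cell markers summed to 455 CPM in HFD and 490 CPM in CD positive B barcodes. The sums were 642 and 558 CPM in negative ones and 4249 and 3377 CPM in T cells. The part of T-cell RNA in the Cxcr6 values of B barcodes was not tested.

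Of 4 listed ligands, Cxcl12, the ligand of CXCR4, was measured only in macrophages, at 7.39 CPM in HFD and 23.2 CPM in CD (log2 -1.65; -1.94 to -1.37). Mif, a cytokine that also binds CXCR4, was at 276 CPM in HFD and 218 CPM in CD macrophages and at 403 and 358 CPM in T cells. It was lower in HFD in B cells, at 250 CPM in HFD and 285 CPM in CD in negative (log2 -0.19) and at 231 and 274 CPM in positive barcodes (-0.24). Ccl19 and Ccl21a, the ligands of CCR7, did not reach 50 UMIs in any of the 4 classes.

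Genes of the KLF2 and FOXO1 axis differed in direction. In T cells Lef1 and Tcf7, transcription factors of naive T cells, had log2 ratios of 0.55 and 0.40. Klf6 was lower in HFD, at 263 CPM against 361 CPM in CD T cells and at 150 and 255 CPM in positive B barcodes. Klf4 was at 112 CPM in HFD and 53.7 CPM in CD macrophages (log2 1.06). Il7r, the interleukin-7 receptor, was at 7.71 CPM in HFD and 22.3 CPM in CD negative B barcodes. The list's medians were -0.21 in macrophages, 0.09 in T cells, -0.19 in negative and 0.01 in positive B barcodes.

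Adhesion genes had medians of 0.10, 0.05, -0.04 and 0.08 in the same order of classes, with 45.5%, 45.5%, 54.5% and 27.3% of its 11 genes below 0, against 56.1%, 53.9%, 52.4% and 42.5% of all genes. Itgam (CD11b), an integrin of peritoneal B-1 cells, was at 60.8 CPM in HFD and 80.4 CPM in CD in negative B barcodes and at 60.5 and 34.0 CPM in positive ones. Regulators that switch off G-protein-coupled receptors had medians of 0.12, -0.10, -0.04 and 0.17. Rgs1 was at 21.9 CPM in HFD and 9.96 CPM in CD T cells and at 38.9 and 19.4 CPM in macrophages, higher in HFD in both. Rgs10 was at 20.5 CPM in HFD and 39.5 CPM in CD negative B barcodes, and higher in HFD in positive ones, at 29.1 CPM against 19.6 CPM in CD.

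Stress-linked genes were looked at because Cxcr4 is a known target of glucocorticoid and hypoxia signalling. Of the glucocorticoid list, which holds Cxcr4 itself, 12 of 14 measured genes were below 0 in macrophages (median -0.55), 12 of 13 in T cells (-0.28), 12 of 13 in negative (-0.53) and 8 of 12 in positive B barcodes (-0.26), beside the 56.1%, 53.9%, 52.4% and 42.5% of all genes below 0. Tsc22d3, the glucocorticoid-induced leucine zipper GILZ, was at 249 CPM in HFD and 440 CPM in CD positive B barcodes (log2 -0.82) and at 147 and 281 CPM in T cells (-0.93). Fkbp5 was at 4.06 CPM in HFD and 14.3 CPM in CD macrophages. Zbtb16 was at 5.01 CPM in HFD and 12.3 CPM in CD T cells.

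The hypoxia list had medians of 0.11 in macrophages, -0.06 in T cells, -0.13 in negative and -0.00 in positive B barcodes. In this order, 9 of 21, 13 of 21, 17 of 22 and 10 of 20 measured genes were below 0. Over all genes tested, 56.1%, 53.9%, 52.4% and 42.5% were. Most of the list was thus lower in HFD negative B barcodes, but its genes did not all share a direction in any class. Ankrd37 was lower in HFD in all 4 classes, for instance at 28.4 CPM in HFD and 69.5 CPM in CD in negative B barcodes, while Adm, which encodes adrenomedullin, was at 42.1 CPM in HFD and 18.5 CPM in CD there. Immediate early genes, which respond to stimulation and to handling of cells, had medians of -0.16, -0.30, -0.08 and -0.16. Fos was at 105 CPM in HFD and 243 CPM in CD positive B barcodes (log2 -1.21), and Nr4a1 was at 82.5 CPM in HFD and 33.3 CPM in CD macrophages (log2 1.31). The part of these lists in the Cxcr4 difference was not tested.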

How the data were processed

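Peritoneal CD45-sorted cells were profiled with a droplet 3′ kit (version 3.1) and a B-cell receptor library, 1 of each per diet. The deposited matrices hold UMI counts per gene and barcode, and the contig tables hold 1 line per receptor contig. Cell Ranger 6.0.1, Seurat 4.3.0 and mm39 appear in the submitters' processing notes, and version 8.0.1 in the matrix header. Groups follow the sample titles, since the note on treatment gives the high-fat diet for either group. UMI totals were 57630074 in HFD and 73549582 in CD, over 6897 and 13227 barcodes.

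A barcode was kept with 300 or more genes and no more than 10% of its UMIs mitochondrial (6684 in HFD, 13069 in CD), no doublet caller was run, and barcodes in both the macrophage and the T gate (49 in HFD, 99 in CD) were left out. Of the kept barcodes, 3677 in HFD and 7112 in CD had a contig. Dendritic, natural killer and monocyte gates used marker sums. At the threshold of the macrophage gate or 1 UMI below it lay 49 HFD and 86 CD barcodes. For the T gate these were 223 and 559 barcodes, and for Fcer2a/Cr2-positive B barcodes 778 and 1579. Those 1 UMI below are not in the class. UMIs were summed per class and diet and given as CPM with exact Poisson 95% intervals. Ratios carry an exact conditional 95% interval, and shares an exact Clopper-Pearson one. With 1 library per diet there is no replicate test. All genes with 50 or more UMIs over both libraries form the background. The B-cell share of a class is its level of 6 B-cell markers over that of B barcodes in the same library.

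Members and lists were chosen with earlier results of these data known. Beside the members, up to 4 genes per list and class of largest ratio, and the 5 most alike genes per member, could be named, and a few further list genes and markers were named after their values were seen. Values of a few other genes that the naming rule covers are not reported here. Sums and intervals were tested on simulated counts. Python 3.11.15, numpy 2.4.6, scipy 1.17.1, pandas 2.3.3 and matplotlib 3.10.9 were used.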

Additional observations from a re-analysis of the deposited data

Results flagged for a closer look

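S1pr1 was higher in HFD than in CD in T cells, with a log2 ratio of 0.35, and lower in HFD in macrophages (-0.61), negative B barcodes (-0.19) and positive B barcodes (-0.35). Klf2 was higher in HFD in macrophages, with a ratio of 0.12, and lower in HFD in T cells (-0.14), negative B barcodes (-0.11) and positive B barcodes (-0.14). These classes went opposite ways between the single HFD and the single CD library, and the difference between classes was not tested.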

How the results depend on the processing

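Over 12 alternatives, 184 values were recomputed, of which 16 had the same barcodes as the reported value and could not differ. Of the other 168, 137 stayed within the counting interval, 27 moved past it with the same sign and 4 changed sign. Cxcr4 was below 0 in all 42 of its values that could differ and moved in 2: T cells gave -1.35 on thinned counts and -1.20 without barcodes of 2 lineages. Its ranges were -4.10 to -2.63 in macrophages, -1.35 to -0.45 in T cells, -1.31 to -1.15 in negative and -1.95 to -1.53 in positive B barcodes. Sign changes were T-cell Klf2 at 0.066 without barcodes of 2 lineages, at 0.33 with the B-cell profile subtracted and at 0.0015 with B cells named by RNA, and T-cell Ccr7 at 0.15 with the profile subtracted.

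S1pr1 moved to -0.38 in macrophages and -0.061 in negative B barcodes on thinned counts, and to -0.32 in macrophages and 0.78 in T cells with the profile subtracted. Ccr7 moved in macrophages to -1.42 with equal weight per barcode, -1.94 on thinned counts, -1.54 without barcodes of 2 lineages, -0.37 with the profile subtracted and -1.56 with B cells named by RNA. In B cells it moved to -0.27 (negative, equal weight), -0.33 (negative, thinned), -0.51 (positive, thinned), -0.30 (positive, looser gates) and -0.31 (positive, B cells named by RNA). Klf2 moved in macrophages to 0.082 with equal weight, 0.088 on thinned counts, 0.18 without barcodes of 2 lineages, 0.27 with the profile subtracted and 0.17 centred on all genes. In T cells it moved to -0.070 with equal weight and -0.079 on thinned counts, and in negative B barcodes to -0.077 with B cells named by RNA. In positive B barcodes it moved to -0.077 with looser gates, -0.18 without mitochondrial, ribosomal and immunoglobulin genes and -0.18 centred on all genes. The cause was not tested. The splits by depth band, by Cxcr4 UMI, by B-cell markers in macrophages and by Ccr7 in dendritic barcodes, and the value without the barcode of neutrophil RNA, were chosen after seeing the data. No paired analysis was possible because each diet has 1 library and the labels carry no replicate numbers. Macrophage and small-class Cxcr4 rests on under 70 UMIs per library, so only large differences are detectable there.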

Other observations

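Of all Cxcr4 UMIs of the kept barcodes, 413 in HFD and 1647 in CD, negative B barcodes held 47.5% in HFD and 38.9% in CD, T cells 22.5% and 10.2%, positive B barcodes 12.3% and 15.6%, and macrophages 2.18% and 3.89%. Barcodes in no gate, 596 in HFD and 2475 in CD, had Cxcr4 at 5.56 CPM in HFD and 23.6 CPM in CD, close to the negative B barcodes of CD but below those of HFD. They held 5.81% of the Cxcr4 UMIs in HFD and 18.4% in CD. Their 6 B-cell markers summed to 6644 CPM in HFD and 7387 CPM in CD. The shares above also depend on the size of each class. Of the contig barcodes, 436 in HFD and 1952 in CD had no expression barcode and were not used.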
